A study of Mus musculus with 2 samples.

Results

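Pericytes are the mural cells that sit on small blood vessels, and 83 barcodes from whole mouse testis were chosen by the UMIs of their own marker genes, of 22096 cells that passed the quality limits. A cell had at least 1000 UMIs (unique molecular identifiers, each standing for 1 captured transcript), at least 500 genes and at most 20% mitochondrial UMIs. A member had UMIs of at least 3 of 6 pericyte genes (Rgs5, Notch3, Abcc9, Kcnj8, Higd1b and Ndufa4l2) and of fewer than 4 of 6 endothelial genes (Pecam1, Cdh5, Kdr, Emcn, Egfl7 and Tie1). It also had fewer than 3 UMIs of the germ cell genes Ddx4 and Dazl together and fewer than 10 UMIs per 10000 of the Sertoli cell genes Aard, Cst9, Cst12 and Sox9. The study compared 2 droplet libraries (10x Genomics 3' chemistry) of testis from C57BL/6 males aged 13 days, 1 library per genotype. The control animals carried 1 floxed and 1 normal Psma7 allele (Psma7 F/+). The knockout carried 1 floxed and 1 null allele with Cre inserted at 1 copy of Stra8 (Psma7 F/-;Stra8-Cre KI/+). Psma7 encodes a subunit of the 20S proteasome core, and Stra8-Cre is known as a germ cell driver, so the vessel cells of the knockout were not its target but held the null allele. Both libraries carried a floxed allele, and the labels do not say how many animals gave a library. The control library gave 47 members (0.418% of 11232 cells, exact 95% interval 0.308% to 0.556%) and the knockout library 36 (0.331% of 10864 cells, 0.232% to 0.458%). These intervals overlap, and they cover counting error alone.

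Pericytes share the basement membrane of capillaries and small venules with the endothelium, and around arterioles their place is taken by vascular smooth muscle. They are recruited by PDGF-BB from endothelial cells through the receptor PDGFRB, are matured by Notch3 signals, and set vessel tone through potassium channels, calcium channels and G protein-coupled receptors. In the testis the vessels run between the seminiferous tubules, whose own wall holds a second kind of contractile cell, the peritubular myoid cell, so the myoid cell is the nearest contractile neighbour for comparison.

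Of the genes of the rule, Rgs5 (ENSMUSG00000026678, chr1:169655501-169695813 on mm10) encodes a regulator that shuts off G protein signals. Notch3 (ENSMUSG00000038146, chr17:32120820-32166852) is the Notch receptor of mural cells. Abcc9 (ENSMUSG00000030249, chr6:142587862-142702315) and Kcnj8 (ENSMUSG00000030247, chr6:142564837-142571614) encode SUR2 and Kir6.1, the 2 subunits of the vascular ATP-sensitive potassium channel. They lie on the same strand with 16247 bases between them. Higd1b (ENSMUSG00000020928, chr11:102835849-102838040) and Ndufa4l2 (ENSMUSG00000040280, chr10:127514967-127517154) encode mitochondrial proteins. The stretches just upstream of 3 of these genes are shown because Rgs5 gave the most UMIs of the rule and because the channel genes are neighbours. They are 150 bases each, 5′ to 3′ on the gene's strand, from RefSeq on GRCm38.p6, the assembly behind mm10.
Rgs5 (chr1:169655351-169655500, plus strand): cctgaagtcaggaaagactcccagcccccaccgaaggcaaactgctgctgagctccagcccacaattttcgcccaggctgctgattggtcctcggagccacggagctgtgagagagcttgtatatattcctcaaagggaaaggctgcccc
Abcc9 (chr6:142702316-142702465, minus strand): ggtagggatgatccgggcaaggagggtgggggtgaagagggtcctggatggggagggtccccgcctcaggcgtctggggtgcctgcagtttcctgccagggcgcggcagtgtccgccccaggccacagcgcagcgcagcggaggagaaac
Kcnj8 (chr6:142571615-142571764, minus strand): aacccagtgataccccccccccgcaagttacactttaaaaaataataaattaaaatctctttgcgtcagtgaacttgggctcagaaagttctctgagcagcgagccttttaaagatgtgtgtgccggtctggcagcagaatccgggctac

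Control members held 536901 UMIs, with a median of 9056 per cell, and knockout members 546950, with a median of 13392. Of the barcodes that passed the limits, 29 occurred in both libraries, among them 1 member. Scrublet, a caller of doublets, marked 1 of the 83 members. The comparison classes, gated by their own transcripts, were 104 and 35 myoid cells (control and knockout), 1823 and 2399 interstitial stromal cells, 58 and 49 endothelial cells and 35 and 40 Leydig cells. Free RNA was estimated from barcodes of 10 to 100 UMIs. If all Sertoli gene UMIs of the members were free RNA, it would make up 11.8% (control) and 4.33% (knockout) of their UMIs, and by germ cell genes 2.16% and 13.2%, the last from 3 UMIs. The smaller value of each library was used.

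The members were divided by stromal and Leydig genes, and this division cannot show whether the pericyte label holds. These genes do not set pericytes apart from vascular smooth muscle, which had no class of its own here. In the control library 33 of the 47 and in the knockout library 17 of the 36 had fewer than 3 of 5 stromal genes (among them Pdgfra, Tcf21, Dcn and Lum) and fewer than 3 of 5 Leydig genes (Cyp17a1, Cyp11a1, Hsd3b1, Insl3 and Star). In these 50 members, called vessel-type members here, the 6 pericyte genes together had a median of 45.7 and 43.2 UMIs per 10000 (control and knockout). Pdgfra, the defining receptor of stromal cells, had 0 UMIs in control and 1 UMI in knockout members of this kind. The other 33 members (14 control, 19 knockout) had 3 or more stromal or Leydig genes. Their pericyte genes reached a median of 3.16 and 4.41 UMIs per 10000, and Dcn, a stromal proteoglycan, was detected in 14 of 14 and 19 of 19. These 33 were deep cells, with medians of 14716 and 15389 UMIs against 7797 and 7072, and they supplied 45.4% (control) and 69.1% (knockout) of the members' UMIs. Whether they are pericytes, stromal cells or mixed droplets was not tested. This division was made after the values were seen, so it is used for description. Pdgfra and Dcn are among the genes that made it, and the pericyte genes chose the members.

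**Figure D1:**
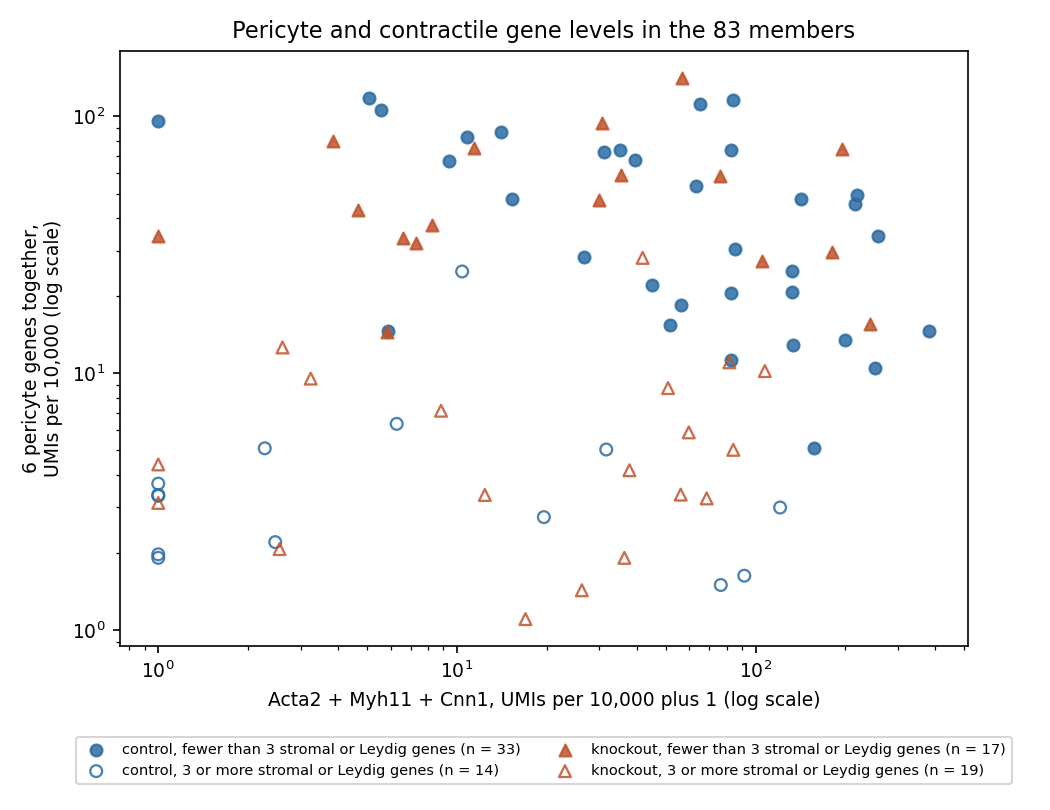
Each point is 1 of the 83 members, with the summed level of Acta2, Myh11 and Cnn1 on the horizontal axis and of the 6 pericyte genes on the vertical axis, both in UMIs per 10000 on log scales (1 was added on the horizontal axis). Filled points are the 50 vessel-type members and open points the 33 with 3 or more stromal or Leydig genes, which lie low on the vertical axis (medians 3.16 and 4.41), while the filled points spread over the whole range of contractile levels.

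A match of each member to the summed profile of 7 classes, over 13653 genes that no gate used and without the member itself, gave a similar division. The pericyte profile was the sum of the other members, and vascular smooth muscle was not among the 7 classes. The match therefore describes how alike the members are and is no support for the label. Of the 50 vessel-type members 49 matched the pericyte profile best, and 1 of the knockout library matched the endothelial profile. Of the other 33, 10 matched pericytes, 13 stromal cells, 8 myoid cells and 2 Leydig cells. Just outside the rule, cells with exactly 2 of the 6 pericyte genes numbered 91 and 181, and their median pericyte level was 1.91 and 1.87 UMIs per 10000. Of these, 83 and 175 had 3 or more stromal genes. Just inside it, 27 and 16 members had exactly 3 genes, with a median of 6.34 and 4.30 per 10000.

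The values of the 6 genes chose the members and are description. Rgs5 was detected in 35 of 47 control and 24 of 36 knockout members, with 671 and 562 UMIs, and a single knockout member held 249 of them. In vessel-type members Rgs5 stood at 2206 and 3039 UMIs per 1000000 (CPM, control and knockout), Notch3 at 780.9 and 782 CPM, and Ndufa4l2 at 474 and 746.5 CPM. Abcc9 stood at 187.6 and 237 CPM there, Kcnj8 at 81.8 and 124.4 CPM, and Higd1b at 173.9 and 343.6 CPM. In myoid cells, which by their gate had fewer than 3 of these genes, Rgs5 was at 4.41 and 221.7 CPM and Higd1b at 0 and 6.16 CPM. Markers of other cells were not absent in the vessel-type members. The 5 stromal genes, which define this group, stood together at 194.4 and 225.1 CPM (control and knockout). The 4 Sertoli genes of the rule stood together at 146.6 and 94.8 CPM. The 6 endothelial genes, which the rule limits, had 10 UMIs in control and 21 UMIs in knockout members together (34.1 and 124.4 CPM), with Kdr and Tie1 at 0. The 6 macrophage genes had 2 and 3 UMIs, with Adgre1, C1qa and C1qb at 0. The 5 erythroid genes had 2 and 66 UMIs (6.82 and 391 CPM), and the knockout value was above that of Abcc9, Kcnj8 or Higd1b there. Of the vessel-type members 11 and 3 also had the transcripts of the myoid gate.

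Against myoid cells, 238 of 9996 genes tested were higher in the members (2.38%) and 143 were lower (1.43%), 3.81% in all, at an adjusted p of at most 0.05 and at least a 2-fold difference. The test was edgeR's quasi-likelihood test on UMIs summed per class and library, with 2 libraries as the only replicates. Library was a term of the fit, so the difference that all classes share between the 2 libraries was removed. The p-values measure the spread left after that, estimated over 5 classes with 4 residual degrees of freedom. With the members of at least 4 pericyte genes (20 and 20 cells) the counts were 445 higher and 374 lower. Without the 33 members of stromal or Leydig genes they were 624 and 553.

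A list of 26 genes known from mural cells elsewhere left out the genes of the rule. Of 23 tested, 8 were higher and 1 was lower, and their median log2 fold change was 1.27 (1.15 with Vtn, at 0 in myoid cells, set to its lower bound), beside 0.03 over all genes tested. Pdgfrb, the receptor through which pericytes are recruited, was at 216.1 and 204.8 CPM in members of the control and knockout library and at 11.0 and 30.8 CPM in myoid cells. Both member values lay above both myoid values, and the log2 fold change was 3.64 ± 0.45 (SE, n = 2 libraries, edgeR adjusted p = 0.00546). Rgs4, which shuts off G protein signals like Rgs5 and lies 45663 bases from it on chromosome 1, was at 169.5 and 149.9 CPM against 4.41 and 12.3 CPM (4.68 ± 0.60, edgeR adjusted p = 0.00546). Rgs16, another gene of this family on the same chromosome, was at 217.9 and 118.8 CPM against 8.82 and 6.16 CPM (4.50 ± 0.54, edgeR adjusted p = 0.00546). Rgs2, which myoid cells also express, did not pass (0.49 ± 0.44, edgeR adjusted p = 0.582).

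Gja4, the gap junction protein connexin 37, was higher at 232.8 and 104.2 CPM against 39.7 and 24.6 CPM (2.42 ± 0.30, edgeR adjusted p = 0.00546). Mustn1 (1.95 ± 0.36), the transcription factor Ebf1 (1.40 ± 0.31) and Map3k7cl (1.27 ± 0.29) also passed, at edgeR adjusted p = 0.0221, 0.0342 and 0.0492. Vtn, which encodes vitronectin, had 37 UMIs in the members and 0 in myoid cells and was at least 7.01-fold higher, against a floor of 3 UMIs over the myoid cells. Classical pericyte antigens were less distinct over all members. Cspg4 (NG2) stood at 0.99 ± 0.45 (edgeR adjusted p = 0.248), Des (desmin) at 1.03 ± 0.45 (0.236) and Mcam (CD146) at 0.92 ± 0.21 (0.038), which is under 2-fold. In the vessel-type members, divided by library and contractile level as below, Mcam lay between 280.1 and 533.8 CPM, against 110 CPM in myoid cells. Des lay between 280.1 and 650.9 CPM against 109 CPM, and Cspg4 between 156.9 and 295.9 CPM against 56.8 CPM. These myoid values pool both libraries, and the differences were not tested. Lamc3, a laminin chain, was lower at 156.5 and 208.4 CPM against 709.7 and 665.1 CPM (log2 fold change -1.97 ± 0.36, edgeR adjusted p = 0.0186).

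Genes of vascular tone were higher for 5 of 19 tested and lower for 0, with a median log2 fold change of 1.46. A receptor for angiotensin II, Agtr1a, had 61 UMIs in the members (37.3 and 75.0 CPM) and 0 in myoid cells, and was at least 11.6-fold higher (edgeR adjusted p = 0.0208). Npr3, the clearance receptor for natriuretic peptides, was at least 12.3-fold higher (52.2 and 67.7 CPM, edgeR adjusted p = 0.00628). Gucy1b1, a subunit of the nitric oxide receptor guanylate cyclase, was at 225.4 and 168.2 CPM against 30.9 and 61.6 CPM (2.28 ± 0.37, edgeR adjusted p = 0.0129). Its partner Gucy1a1 stood at 1.46 ± 0.52 and did not pass (0.142).

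Calcium entry channels were also higher. Trpc6, a receptor-operated cation channel, was at 281.2 and 148.1 CPM against 2.20 and 49.3 CPM (3.81 ± 0.77, edgeR adjusted p = 0.0289). Cacna1c, the pore of the L-type channel, was at 746.9 and 405.9 CPM against 205 and 197.1 CPM (1.5 ± 0.28, edgeR adjusted p = 0.0193). The endothelin receptors did not pass, Ednra at -0.16 ± 0.60 (edgeR adjusted p = 0.929) and Ednrb at 1.11 ± 0.44 (0.191). Both channel subunits of pancreatic type were near the limit of detection, Kcnj11 at 0 and 1.83 CPM and Abcc8 at 3.73 and 18.3 CPM. Adrenergic receptors were too low to be tested.

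The Notch list had 3 of 21 tested genes higher and 0 lower, with a median of 0.68. Notch1 had 57 UMIs against 0 in myoid cells and was at least 10.8-fold higher (52.2 and 53 CPM, edgeR adjusted p = 0.0149). Notch2 did not pass (0.15 ± 0.35, edgeR adjusted p = 0.87). Among the targets, Nrarp and Hes1 passed. Nrarp, a feedback inhibitor of Notch, was at 193.7 and 78.6 CPM against 30.9 and 6.16 CPM (2.61 ± 0.48, edgeR adjusted p = 0.0191). Hes1, a repressor, was at 529 and 559.5 CPM against 249.1 and 295.6 CPM (1.01 ± 0.24, edgeR adjusted p = 0.042). The ligand Jag1 (1.35 ± 0.40, edgeR adjusted p = 0.087) and the targets Heyl (1.28 ± 0.39, 0.102) and Hey2 (2.50 ± 0.82, 0.117) did not pass. With members of at least 4 pericyte genes their adjusted p was 0.0373, 0.0323 and 0.0289.

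The Notch cofactor RBPJ binds the letters GTGGGAA, and smooth muscle genes are driven by serum response factor at a motif called the CArG box. Both were searched on both strands in the 250 bases upstream of gene starts in RefSeq. The first was found in 5.42% of 32851 promoters and in 3 of 21 genes of the Notch list that had one (Hey2, Hes5 and Lfng). The CArG box was found in 1.47% of all promoters and in 2 of 19 contractile genes (Myl9 and Srf). A match of letters is a description and no binding was measured. Hey2 (41 UMIs in the members) and Myl9 (1742 UMIs) had the most UMIs of the genes with a match in their lists and are shown, with the match in capitals.
Hey2 (chr10:30842802-30843010, minus strand): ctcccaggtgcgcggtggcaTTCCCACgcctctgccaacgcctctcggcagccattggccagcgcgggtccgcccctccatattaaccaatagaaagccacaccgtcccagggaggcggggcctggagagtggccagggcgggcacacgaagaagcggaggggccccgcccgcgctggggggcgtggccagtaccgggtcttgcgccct
Myl9 (chr2:156775283-156775419, plus strand): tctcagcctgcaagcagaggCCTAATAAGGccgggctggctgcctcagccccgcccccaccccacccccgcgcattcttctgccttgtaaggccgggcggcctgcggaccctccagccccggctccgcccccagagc
The capitals start 207 bases before the RefSeq start of Hey2, on the opposite strand, and 161 bases before that of Myl9. Bases inside the gene as GENCODE annotates it were left out.

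Contractile genes gave few calls against myoid cells. Of 19 tested, 0 were higher and 1 was lower by edgeR, with a median of -0.37. DESeq2 gave the same counts, and at an unadjusted edgeR p under 0.05 the counts were 0 and 4. The share of all genes at this unadjusted limit was not counted, here or for the lists below. Ppp1r12b, a subunit of myosin phosphatase, was the lower one (-1.20 ± 0.29, edgeR adjusted p = 0.0435). Myl9, the myosin regulatory light chain of smooth muscle, was at 1755 and 1463 CPM against 2442 and 2137 CPM (-0.52 ± 0.63, edgeR adjusted p = 0.703). Tagln, an actin-binding protein, was at 3656 and 2359 CPM against 2202 and 2217 CPM (0.47 ± 0.45, edgeR adjusted p = 0.606). The median was 0.19 without the 33 members of stromal or Leydig genes and -0.95 without the 22 members that also passed the myoid gate, so its sign rests on which members are counted. The myoid cells and these 22 members were both chosen by Acta2, Myh11 and Cnn1, so the contractile medians depend in part on the gates. Carmn, a long non-coding RNA of smooth muscle, was lower at 106.2 and 100.6 CPM against 734 and 505 CPM (-2.59 ± 0.44, edgeR adjusted p = 0.0154).

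**Figure D2:**
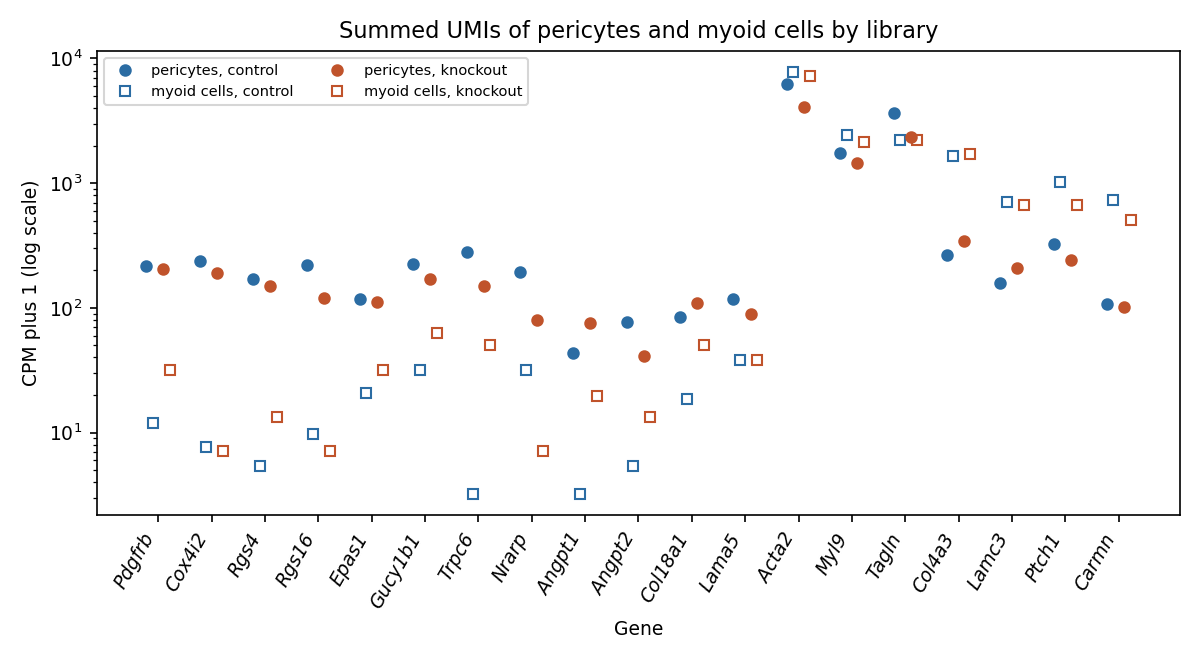
CPM plus 1 on a log scale for 19 genes, with filled circles for the pericyte members and open squares for myoid cells, in the control (blue) and knockout (orange) library. The genes on the left, from Pdgfrb to Lama5, had both member values above both myoid values. Acta2, which the myoid gate used, Myl9 and Tagln lay within about 2-fold of each other, and Col4a3, Lamc3, Ptch1 and Carmn were higher in myoid cells.

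Signals between mural and endothelial cells were higher for 5 of 31 tested genes and lower for 0 (median 0.53). Angpt1, the ligand that stabilises vessels through the receptor Tie2, was at 42.8 and 75.0 CPM against 2.20 and 18.5 CPM (3.11 ± 0.74, edgeR adjusted p = 0.0419). Angpt2, its antagonist, was at 76.4 and 40.2 CPM against 4.41 and 12.3 CPM (3.29 ± 0.70, edgeR adjusted p = 0.0294). Nrp1, a co-receptor of VEGF, passed at 1.58 ± 0.27. Cxcl12, a chemokine, passed at 1.84 ± 0.39, but its level was 145.3 and 173.7 CPM over all members and 81.8 and 88.9 CPM in the vessel-type members. Its level in stromal cells was higher still (log2 fold change of members over stromal cells -1.64, edgeR adjusted p = 0.00379).

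In the basement membrane, 5 of 18 genes were higher and 1 was lower (median 0.71). The higher ones were Lama5, Col18a1, Col15a1, Sparc and Vtn. Lama5, a laminin chain of mature vessels, was at 117.3 and 87.8 CPM against 37.5 and 37.0 CPM (1.49 ± 0.31, edgeR adjusted p = 0.0289). Col18a1, the source of endostatin, was at 83.8 and 107.9 CPM against 17.6 and 49.3 CPM (1.82 ± 0.42, edgeR adjusted p = 0.0383). Outside this list, Col4a3 and the Hedgehog receptor Ptch1 went the other way. Col4a3, a collagen IV chain, was at 262.6 and 345.6 CPM against 1660 and 1700 CPM (-2.51 ± 0.46, edgeR adjusted p = 0.0186), and at 10.2 and 23.7 CPM in the vessel-type members. Ptch1, the receptor and target of Hedgehog signals, was at 322.2 and 241.3 CPM against 1029 and 665.1 CPM (-1.61 ± 0.31, edgeR adjusted p = 0.0208), and at 47.7 and 23.7 CPM in the vessel-type members.

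Cox4i2, the hypoxia-linked form of a cytochrome c oxidase subunit, was at 238.4 and 188.3 CPM against 6.61 and 6.16 CPM (5.04 ± 0.49, edgeR adjusted p = 0.00267). Its paralogue Cox4i1 was at 698.5 and 702.1 CPM against 711.9 and 652.8 CPM (0.02 ± 0.16, edgeR adjusted p = 0.971). Ndufa4l2 and Higd1b were genes of the rule, so only their paralogues could be tested. Ndufa4, the paralogue of Ndufa4l2, stood at -0.40 ± 0.20 (edgeR adjusted p = 0.291) and Higd1a, the paralogue of Higd1b, at -0.55 ± 0.27 (0.285). Epas1, which encodes the oxygen-regulated factor HIF-2alpha, was at 117.3 and 109.7 CPM against 19.8 and 30.8 CPM (2.36 ± 0.38, edgeR adjusted p = 0.013). In a list of paralogues of pericyte genes, which also held RGS and Notch genes, 4 of 10 tested were higher (Cox4i2, Rgs4, Rgs16 and Notch1) and 0 lower, with a median of 0.53.

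Of 17 genes for chemokines, cytokines and growth factors, 6 were higher and 0 lower (median 0.89). Il34, a ligand of the macrophage receptor CSF1R, had 71 UMIs in members and 2 in myoid cells, a ratio of 20.2 (95% counting interval 5.38 to 170). Cxcl1 gave a ratio of 41.8 (11.4 to 348) and Il6, a cytokine, one of 29 (4.97 to 1170), from 2 and 1 myoid UMIs. Igfbp5, which binds insulin-like growth factors, was at 277.5 and 182.8 CPM against 66.1 and 92.4 CPM (1.64 ± 0.29, edgeR adjusted p = 0.0191). Immediate-early genes, which dissociation of tissue can induce, were higher for 3 of 21 (Fos, Fosl2 and Zfp36) and lower for 0 (median 0.73). Heat shock genes were higher for 4 of 16 (Hspa1a, Hspa1b, Hsph1 and Dnajb1) and lower for 1, the small chaperone Hspb1. Without the 33 members of stromal or Leydig genes, Dnajb1 was no longer higher (-0.07, edgeR adjusted p = 0.944). The part of cell handling in these values was not tested. Of 36 proteasome genes other than Psma7, 0 passed in either direction by edgeR or DESeq2 (median 0.23). At an unadjusted edgeR p under 0.05 there were 6 higher and 1 lower, with no share of all genes at that limit to set beside them.

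Adhesion genes were higher for 3 of 19 tested (Cdh2, Itga4 and Gja4) and lower for 0. Itga4, the alpha chain of an integrin, was at 76.4 and 71.3 CPM against 15.4 and 12.3 CPM (2.27 ± 0.45, edgeR adjusted p = 0.0228). Cdh2, which encodes N-cadherin of the contacts between mural and endothelial cells, gave a ratio of 10.4 (95% counting interval 3.38 to 52.1) from 3 myoid UMIs. In the interstitial matrix 1 of 20 was higher, Postn (periostin), at 134.1 and 199.3 CPM against 44.1 and 30.8 CPM (1.95 ± 0.32, edgeR adjusted p = 0.017). Transcription factors of mural cells were higher for 3 of 26 (Ebf1, Epas1 and Mef2c). Genes of S phase (16), of G2 and mitosis (20) and targets of p53 (15) had 0 edgeR calls in either direction. At an unadjusted edgeR p under 0.05 they had 1, 4 and 1 higher and 0, 0 and 1 lower, and DESeq2 called 1 S phase gene higher and 0 of the others. The G2 and mitosis median was 1.08, at -0.09 with control sums alone and 3.76 with knockout sums alone. With pericytes and myoid cells alone 5 of 10 of these genes were higher, with no filter on low counts 7 of 22, and without the 33 members of stromal or Leydig genes 1 of 21.

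Among all called genes, Sept4, a septin, had 126 UMIs in members (145.3 and 87.8 CPM) and 0 in myoid cells, and was at least 23.9-fold higher (edgeR adjusted p = 0.00859). Fabp7, a fatty acid-binding protein, was at least 11.9-fold higher (83.8 and 32.9 CPM). Fabp4, a related protein, gave a ratio of 64.8 (95% counting interval 11.4 to 2580) and Nostrin, a trafficking protein of nitric oxide synthase, one of 46.6 (8.14 to 1860), each from 1 myoid UMI. Lhcgr, the luteinising hormone receptor of Leydig cells, was also at least 16.1-fold higher, but its level was 95 and 62.2 CPM over all members and 6.82 and 5.92 CPM in the vessel-type members. The lowest fold changes among the named genes were those of Hist1h2ac (-4.50 ± 0.64), the pentraxin Nptx2 (-4.42 ± 0.75), the ephrin receptor Epha8 (-3.89 ± 0.70) and Tex14 (-3.39 ± 0.47), at edgeR adjusted p = 0.0077, 0.0154, 0.0236 and 0.00732. Hist4h4, Pou3f1, Cx3cl1, Chrdl1, Myo18b and Snhg20 completed the named genes below myoid cells, between -3.24 and -2.58.

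Against stromal cells, 631 of the same genes were higher (6.31%) and 213 lower (2.13%), 8.44% in all. Mural genes were higher for 19 of 23 and contractile genes for 17 of 19. Mcam, which did not reach 2-fold over myoid cells, was far above stromal cells (5.24 ± 0.20, edgeR adjusted p = 2.48e-07), and Gja4 stood at 8.28 ± 0.28 (1.55e-07). Against endothelial cells, the other partner in the vessel wall, 1043 genes were higher (10.4%) and 914 lower (9.14%), 19.6% in all. Mural genes were higher for 17 of 23 and contractile genes for 15 of 19. Rgs16 did not differ between members and endothelial cells by more than its error (-0.02, edgeR adjusted p = 0.98), Gja4 was lower in members (-0.77, edgeR adjusted p = 0.0183, under 2-fold) and so was Notch1 (-1.72, edgeR adjusted p = 0.0035). The 5 highest named genes against stromal cells were Rergl, Fabp7, Olfr558, Col19a1 and Gja4. Rergl, a RAS-like gene of arterial smooth muscle, was at 188.1 and 69.5 CPM in members, and Fabp7 was at 0 CPM in both stromal libraries. Against endothelial cells they were Map3k7cl, Trpc6, Rergl, Ntrk3 and Zfp804b, each at 0 CPM in both endothelial libraries. Genes above myoid cells were therefore not all above the endothelium.

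The vessel-type members differed widely among themselves in contractile genes, from 0 to 380.6 UMIs per 10000 of Acta2, Myh11 and Cnn1 among control members and from 0 to 241.4 among knockout members. They were divided at the median of the 50, 53.1 per 10000, and 5 lay within 10 of it. The low side held 14 control and 11 knockout members and the high side 19 and 6. The division was made after these values were seen and the counting intervals below treat UMIs as independent, so they are descriptions. Of 225 listed genes, the interval of the log2 ratio of low over high lay above 0 in both libraries for 24 and below 0 in both for 28. The listed genes include those of the rule and of the myoid gate. The share over all genes was not counted, so the list counts below have no such background. For 4 (Rgs5, Trpc6, Ednrb and Mgp) the libraries went opposite ways.

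Abcc9 and Kcnj8 helped to choose the members, so their values here are no support for anything beyond description. Abcc9 was at 493 and 427.1 CPM in low members and 53.9 and 47.3 CPM in high members, and it was detected in 11 of 14 and 9 of 11 low members against 5 of 19 and 2 of 6 high ones. Kcnj8 was at 201.7 and 225.4 CPM against 29.4 and 23.7 CPM. Rgs16 was at 1165 and 628.7 CPM against 39.2 and 71.0 CPM, although single members held 46 of 104 and 36 of 53 of its UMIs on the low side. Art3 (257.7 and 213.5 against 9.80 and 23.7 CPM), Steap4, a metalloreductase (336.1 and 344 against 14.7 and 0 CPM), and Agtr1a (179.3 and 391.5 against 9.80 and 47.3 CPM) divided alike. Pdgfrb was at 616.2 and 676.2 CPM against 201 and 142 CPM, and Cox4i2 at 750.7 and 842.3 CPM against 269.6 and 284 CPM. Of 18 basement membrane genes, 6 had intervals above 0 in both libraries (Col4a1, Col4a2, Lama2, Lamb1, Col15a1 and Vtn) and 0 below 0 in both. These counts stand beside 24 and 28 of the 225 listed genes. Lama5 and Lamb2 had intervals below 0 in the knockout library alone. Col4a1 was at 2375 and 2634 CPM against 1176 and 1160 CPM and the laminin chain Lama2 at 448.2 and 474.5 CPM against 98 and 23.7 CPM.

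Of 20 contractile genes, of the same kind as the genes that made the division, 10 had intervals below 0 in both libraries and 0 above. Tagln was at 2084 and 794.8 CPM in low and 8216 and 9846 CPM in high members. Eln, elastin of the arterial wall, was at 537.8 and 118.6 CPM against 6725 and 6118 CPM, with 413 of 1372 and 466 of 517 high-side UMIs in single members. Fbn1, another gene of elastic fibres, was at 369.7 and 284.7 CPM against 191.2 and 201.2 CPM. Mustn1 was detected in 3 of 14 and 2 of 11 low members and in 18 of 19 and 5 of 6 high ones, at 123.2 and 23.7 CPM against 764.7 and 1053 CPM. Myocd, the coactivator of serum response factor, had 4 and 0 UMIs on the low side and 78 and 37 on the high side. The Notch ligand Jag1 was at 134.4 and 166.1 CPM against 323.5 and 508.9 CPM, and the target Hey2, shown above with its RBPJ letters, at 22.4 and 23.7 CPM against 112.7 and 106.5 CPM. The receptor Notch3, a gene of the rule, was at 986 and 925.3 CPM against 691.2 and 639.1 CPM, with intervals above 0 in both libraries. Hes1 and Ndufa4l2 had intervals that spanned 0 in both libraries. Low members were shallower, with median UMIs of 4840 and 6225, and the part of depth was not tested. High members thus had little Abcc9, Kcnj8 and Steap4 and much Tagln, Eln and Myocd. Whether they are pericytes or vascular smooth muscle cells was not tested, so the pericyte label is open for them.

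**Figure D3:**
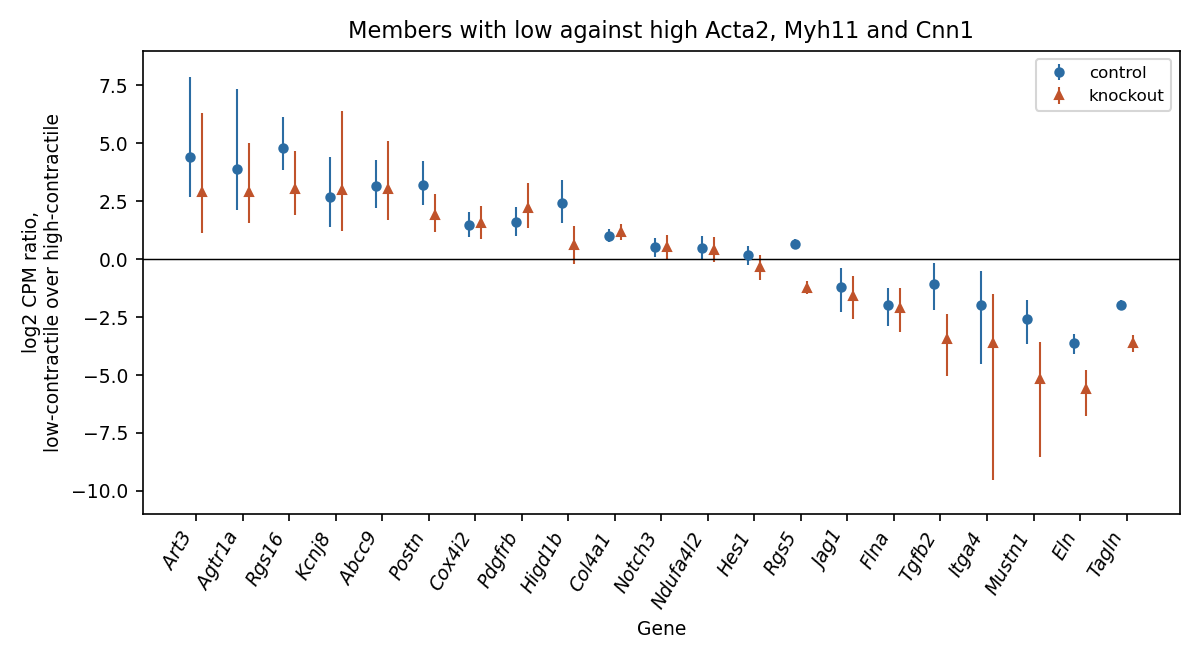
The log2 ratio of CPM in low-contractile over high-contractile vessel-type members for 21 genes with UMIs on both sides of both libraries, circles for the control and triangles for the knockout library, with 95% counting intervals. Kcnj8, Abcc9, Rgs16 and Pdgfrb lie above 0 and Eln, Mustn1 and Tagln below 0 in both libraries, and Rgs5 lies on opposite sides.

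Between genotypes there was 1 library each, so no test was made, and values are given for genes with at least 100 UMIs in the members of both libraries together. Of 2368 such genes, 34 were at least 2-fold higher (1.44%) and 61 at least 2-fold lower (2.58%) in the knockout library, 4.01% in all. Psma7 had 103 UMIs in 37 control members (191.8 CPM) and 52 UMIs in 24 knockout members (95.1 CPM), a log2 ratio of -1.01 (95% counting interval -1.52 to -0.52). In the vessel-type members it was at 160.3 and 136.3 CPM, from 47 and 23 UMIs, with a log2 ratio of -0.22 (-1.02 to 0.51), so there the difference was not detectable at this depth. In the 33 other members it was at 229.8 and 76.7 CPM. Stromal cells of the same libraries had 236.1 and 103.9 CPM.

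None of the 18 mural genes at this depth was 2-fold higher and 1, Gja4, was 2-fold lower (median log2 ratio -0.26, beside 0.00 over all deep genes). Of 819 genes with at least 100 UMIs in the vessel-type members, 1.22% were 2-fold higher and 5.37% 2-fold lower there, 6.59% in all, and 0 of 11 mural genes were among them (median 0.01). Of 16 contractile genes, Myocd was 2-fold higher and Synpo2 2-fold lower over all members, with a median of -0.34. In the vessel-type members 0 of 14 contractile genes reached 2-fold in either direction, and the median was -0.12. Myocd, which had 119 of its 534 UMIs in the vessel-type members, was among these 14. Over all members 9 of the 16 had counting intervals below 0 and 2 above, beside 348 and 327 of all 2368 deep genes. Of 10 genes of vascular tone, 0 reached 2-fold, but 6 had intervals below 0 and 0 above, with a median of -0.47. In the vessel-type members 2 of 14 contractile and 3 of 8 tone genes had intervals below 0 and 0 above. Beside them, 153 of all 819 genes lay below 0 and 95 above. The tone median there was -0.195, and it was -0.261 without the deepest member of each library. Over all members, immediate-early genes had a median of 0.26 over 19 genes, and 1 of them, Klf6, was 2-fold higher. Among these genes 11 had intervals above 0 and 3 below. The 19 other proteasome genes had a median of -0.07 and 0 of them reached 2-fold. The share of members with stromal or Leydig genes differed between the libraries (14 of 47 and 19 of 36), and so did haemoglobin and other erythroid genes in the vessel-type members (2 and 66 UMIs). The part of either in these ratios was not tested.

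The genes furthest apart rested in part on single cells. Dach1, a transcriptional cofactor, had 11 UMIs in control and 308 in knockout members, but 1 member held 271 of them, and the log2 ratio of 4.72 was 2.18 without the highest member of each library. Rnf217, a ubiquitin ligase, had 289 against 44 UMIs with 236 in 1 member, and its ratio of -2.73 became -0.69. Pdgfd, a ligand of PDGFRB, had 153 against 38 UMIs with 105 in 1 member, and its ratio of -2.02 became -0.77. Kcnd2, a potassium channel, had 160 against 5 UMIs, 96 of them in 1 of the 4 control members with any. Arhgap31 had 81 of 120 control UMIs in 1 member. Of the 16 named genes, 5 had most of their UMIs of the higher library in 1 member, and 14 stayed at least 2-fold without the highest members.

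More evenly spread were Kpna1, an importin, with 163 UMIs in 25 control and 53 in 18 knockout members (-1.64, interval -2.12 to -1.19), and Rrad, a GTPase that inhibits calcium channels, with 140 in 25 against 45 in 10 members (-1.65, -2.18 to -1.17). Kcnma1, the large-conductance potassium channel, had 87 UMIs in 14 against 25 in 5 members (-1.81) and Neat1, a nuclear RNA, 96 in 14 against 30 in 6 members (-1.69). Single control members held 34 of the 87 and 43 of the 96. Higher in the knockout library were Fabp4 (24 UMIs in 9 against 90 in 14 members, 1.86, interval 1.22 to 2.59), Pdpn, Colec12, Col25a1, Pde4b, Grasp and Cks2, at log2 ratios from 1.57 to 2.42. Of these, Pdpn had 1 UMI in all in the vessel-type members, and 1 knockout member held 86 of the 185 knockout UMIs of Pde4b. The 6 genes of the rule had ratios between -0.49 (Notch3) and 0.29 (Abcc9).

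**Figure D4:**
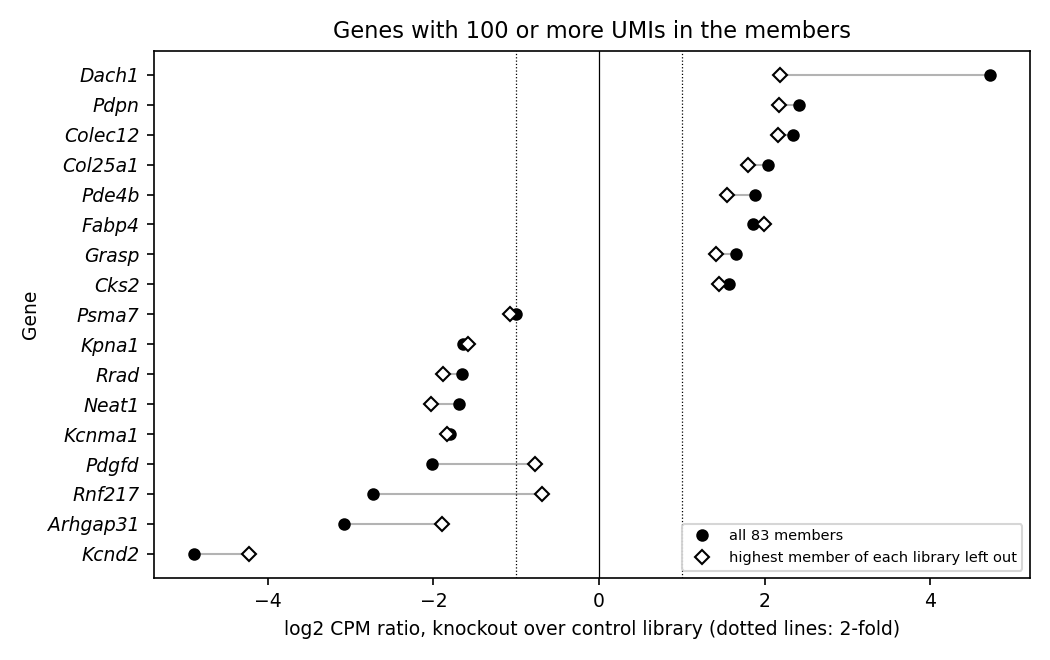
The log2 ratio of CPM in knockout over control members for Psma7 and the 16 named genes, with filled circles for all 83 members and open diamonds without the highest member of each library. Dotted lines mark 2-fold, and Rnf217 and Pdgfd move inside them when the highest members are left out.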

How the data were processed

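The authors deposited raw UMI counts for every gene in every barcode. Per the file headers they come from Cell Ranger 7.1.0, and the labels name mm10 as the genome. The unfiltered matrices held 146528736 (control) and 112746953 (knockout) UMIs. Members were found by the rule given above. Members and gene lists were chosen with earlier results of these data known.

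UMIs were summed per library over pericytes and over myoid, stromal, endothelial and Leydig cells, each gated by its own genes among cells with fewer than 3 pericyte genes, where cells passing more than 1 gate were left out. A myoid cell had Acta2, Myh11 and Cnn1, together at least 10 per 10000, and a stromal cell at least 3 of the 5 stromal genes. edgeR 4.0.16 (R 4.3.3) was fitted to the 10 sums with TMM scaling, filterByExpr and library as a term, leaving 4 residual degrees of freedom. Adjusted p is Benjamini-Hochberg over the 10025 genes fitted, and the genes of the gates were left out of the counts, which leaves 9996. The SE is the log2 fold change over the square root of F. DESeq2 1.42.0 was an alternative. The scripts were tested on simulated data. Genotype ratios are of CPM with 0.5 added to each count, with exact conditional 95% intervals of 2 Poisson counts. Scrublet (scanpy 1.11.5) called doublets, which were kept. For knockout cells its own threshold marked 0, and that of the control library was applied. The text names the rule genes, Psma7, members of the mural, paralogue, Notch and tone lists, the 3 highest and lowest of other lists, the 12 highest and 12 lowest called genes against myoid cells of at least 50 CPM, and the 8 highest and 8 lowest genotype ratios, where free RNA could not give over 50% of the UMIs. Some genes that this rule names are not reported here. Other called genes of a list were named after their values were seen, and so were the genes compared between low and high members. RefSeq promoters were matched by symbol, and gene coordinates come from GENCODE M21.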

Additional observations from a re-analysis of the deposited data

How the results depend on the processing

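The number of members moved by more than 1.5 times with at least 4 of 6 pericyte genes (20 and 20), after thinning to 2000 UMIs (23 control, 16 knockout) and, in the knockout library, without members of stromal or Leydig genes (17). Of the planned and added alternatives, those that changed the counts against myoid cells by over 1.5 times were at least 4 of 6 genes (445 higher, 374 lower), pericytes and myoid cells alone (507 and 330), no filter on low counts (588 and 264), members passing the myoid gate left out (229 lower) and members of stromal or Leydig genes left out (624 and 553). The last of these also gave 949 higher and 708 lower against stromal cells, where 4 of 6 genes gave 457 lower and leaving out members that passed the myoid gate gave 108 lower. DESeq2 gave 274 higher and 153 lower. The fit with no replicate block (no library term) gave 238 and 149. No pairing beyond the shared library was possible. The mural median became 1.68 with 4 of 6 genes and 1.92 without the stromal or Leydig members. The contractile median became -0.27 with 4 of 6 genes, -0.95 without members passing the myoid gate, 0.19 without the stromal or Leydig members, -0.27 with no filter and -0.47 without the block. The control library alone gave a mural median of 1.41 and a contractile median of -0.42, and the knockout library alone gave 0.95 and -0.34.

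Of 374 listed or named genes, 3 that were called with or without the stromal or Leydig members changed sign without them, Dnajb1 (-0.07), Hspe1 (-1.03) and Igf1 (-3.72). Dnajb1 had been called higher. Genes called in neither setting, such as Actg2 and Apoe, also changed sign. Genotype counts were 91 higher and 138 lower with a minimum of 50 UMIs and 10 and 24 with 200. They were 22 and 24 without members passing the myoid gate, 21 and 24 without the deepest member of each library, 18 higher with 4 of 6 genes and 10 higher without the stromal or Leydig members. Psma7 moved to -0.22 in that last setting and stayed within its interval in the other settings in which it reached the minimum. The alternatives on stromal or Leydig members and on single members were added after the data were seen. With 2 libraries and 83 cells, genes of few UMIs are limited by depth, and the causes of these shifts were not tested.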
